A study of Mus musculus with 6 samples.

Results

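The genes described here are the mouse orthologues of 9 genes that common variants have linked to human refractive error: Gjd2, Rasgrf1, Prss56, Tox, Zic2, Rbfox1, Lama2, Kcnq5 and Shisa6. They were given by name, with earlier results of these data known, from the 33696 genes of the matrices, and all 9 were detected. Single cells had been prepared from the back of the mouse eye (sclera, choroid and retina, with the lens, cornea, iris and ciliary body cut away). Before this, 1 group of 12 mice had received 6 drops of tropicamide at intervals of 10 min followed by a wait of 1 h. Tropicamide is a muscarinic receptor antagonist that relaxes the ciliary muscle. The labels call the groups relaxed and contracted ciliary muscle. The control group, also 12 mice, was given drops of saline every 10 min, and neither their number nor the wait is stated in the labels. Right eyes were pooled by 4, which gave 3 pools (libraries) per group. The labels used here name neither the strain, the age nor the sex of the mice.

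Refractive error arises when the length of the eye does not match its optical power. Eye growth is steered by a signal that starts in the retina, where photoreceptors, bipolar cells and amacrine cells process the image, and that passes through the pigment epithelium and choroid to the sclera, where fibroblasts remodel collagen. Genes linked to refractive error have been placed at all of these steps, and the 9 members cover several of them: an electrical synapse channel, a glutamate receptor auxiliary protein and a potassium channel, a secreted protease and a basement membrane chain, a signalling protein, and nuclear and RNA-binding regulators.

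The 6 libraries held 66434 barcodes and 30761887 to 49477707 unique molecular identifiers (UMIs, each standing for 1 captured RNA molecule), and 60058 cells were kept, 8701 to 11990 per library. Rod-like cells made up 82.1% of them. Levels are given as CPM, the UMIs of a gene in a class and library scaled to a total of 1000000 UMIs, and CPM is not corrected for gene length, so levels are compared between classes and not between genes. A class carries the ending "-like" because it was named from marker genes of clusters built here. 12 of 52 clusters kept a number only. Any 2 libraries shared 22 to 64 barcodes, at most 0.504% of the smaller. Class means were not tested against each other, since the classes were built from the same cells. Corneal or conjunctival epithelium-like cells (194) were present although the cornea had been removed, with Krt12 and Krt5 among their leading genes.

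Promoter sequences were at hand for 6 of the 9 members. Those of Gjd2, Prss56 and Lama2 are shown because these 3 genes had their UMIs in different tissues: retinal neurons, Müller glia and connective tissue. Each is the 250 bases before the start of the gene as annotated by RefSeq in build GRCm38.p6, written 5′ to 3′ on the strand of the gene. The Gjd2 stretch is chr2:114013620-114013869 (minus strand), that of Prss56 is chr1:87183064-87183313 (plus strand) and that of Lama2 is chr10:27616943-27617192 (minus strand). Capitals mark the letters TAATCC on either strand, read as GGATTA on the opposite strand, the core recognised by the photoreceptor and bipolar cell factors CRX and OTX2.
Gjd2: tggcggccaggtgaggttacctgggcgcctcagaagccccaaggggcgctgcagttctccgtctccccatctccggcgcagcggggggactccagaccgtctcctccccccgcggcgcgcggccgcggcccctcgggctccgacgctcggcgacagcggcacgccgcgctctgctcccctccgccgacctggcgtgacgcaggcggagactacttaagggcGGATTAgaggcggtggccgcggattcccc
Prss56: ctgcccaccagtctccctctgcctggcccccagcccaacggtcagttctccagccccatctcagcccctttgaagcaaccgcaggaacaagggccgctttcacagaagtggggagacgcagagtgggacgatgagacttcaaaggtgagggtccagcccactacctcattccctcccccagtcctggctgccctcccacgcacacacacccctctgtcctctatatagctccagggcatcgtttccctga
Lama2: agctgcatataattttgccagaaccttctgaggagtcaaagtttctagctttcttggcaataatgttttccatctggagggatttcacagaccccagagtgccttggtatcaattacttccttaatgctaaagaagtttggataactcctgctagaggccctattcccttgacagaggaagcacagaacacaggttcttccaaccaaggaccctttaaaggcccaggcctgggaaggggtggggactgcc
The Gjd2 promoter was the only 1 of the 8 member promoters (Rbfox1 and Kcnq5 had 2 each) with these letters, and its match began 29 bases before the start site. Of 32526 mouse promoter stretches of the same length, 6.25% held them. The Gjd2 stretch held 33 CpG dinucleotides and 74.0% G and C. That of Lama2 held 0 CpG and 47.2% G and C, while the median over all promoters was 6 CpG and 52.4%. These are descriptions of letters and say nothing about which factor binds.

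**Figure D1:**
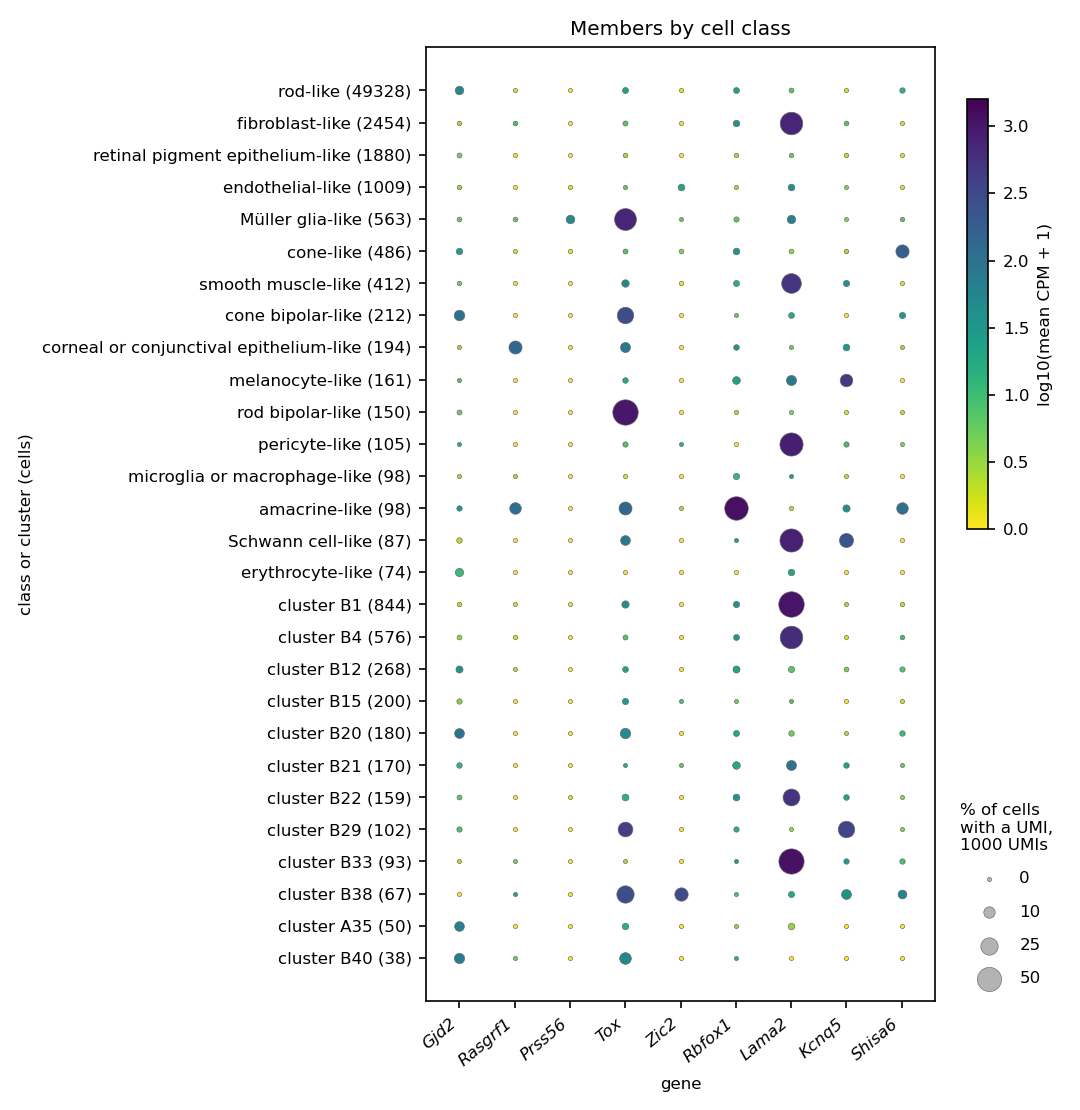
Level of the 9 members (columns) in 28 classes and clusters (rows, with their number of cells). The colour is log10 of the mean CPM over the libraries plus 1, and the dot size is the share of cells with a UMI after each cell was thinned to 1000 UMIs. Lama2 fills the connective tissue rows, Prss56 mainly the Müller glia-like row, and Gjd2 the rod-like and cone bipolar-like rows and cluster B20.

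Gjd2 encodes connexin 36, the channel protein of neuronal gap junctions that couples photoreceptors, AII amacrine cells and ON cone bipolar cells. Its level was highest in cone bipolar-like cells, at 108 ± 24.95 CPM (SD, n = 6 libraries). The 3 saline pools measured 119, 112 and 85.0 CPM and the 3 tropicamide pools 115, 144 and 75.15 CPM, so that the groups overlapped. Within these cells, cluster B24 had 139 ± 40.2 CPM and cluster B36, which has the OFF bipolar gene Grik1 among its leading genes, had 51.7 ± 49.7 CPM. B36 rests on 15 UMIs in 76 cells. Its pools, from 14.7 to 147.6 CPM, overlapped those of B24, from 96.4 to 192.6 CPM. Cluster B20, which was left unnamed because rod bipolar and cone bipolar markers scored alike, reached 100.3 ± 23.9 CPM. Rod-like cells had a lower level, 49.0 ± 3.19 CPM, but through their number they held 90.4% of all Gjd2 UMIs. Their pools lay close together, from 45.3 to 53.9 CPM. A Gjd2 UMI was found in 9.53% of rod-like cells, or 4.90% after thinning to 1000 UMIs per cell, against 34.4% and 8.37% of cone bipolar-like cells. Retinal pigment epithelium-like cells, which lie against the rods, gave 1.12% and 0.632%, at 4.04 ± 2.69 CPM. The median depth was 2069 UMIs per rod-like, 4751 per cone bipolar-like and 1463.5 per pigment epithelium-like cell. Amacrine-like cells (98 in all) had 31.3 ± 31.5 CPM with 36 UMIs, and cone bipolar-like cells, cluster B20 and rod-like cells each overlapped the next class in the order.

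Shisa6, an auxiliary subunit of AMPA-type glutamate receptors, was highest in cone-like cells at 170 ± 30.4 CPM. The saline pools had 166, 122 and 176 CPM and the tropicamide pools 198, 206 and 154 CPM, and the groups overlapped. A Shisa6 UMI was present in 41.4% of cone-like cells and in 2.28% of rod-like cells, or 13.9% and 1.097% after thinning, and in 0.266% of pigment epithelium-like cells. Amacrine-like cells followed at 104 ± 75.3 CPM, and the pools ranged from 33.6 to 248 CPM. Rod-like cells had 12.4 ± 1.89 CPM. Among the rod clusters with at least 1000 cells, A5 was highest for Shisa6 at 42.1 ± 14.8 CPM and A8 lowest at 4.84 ± 5.05 CPM. The level of Shisa6 was thus lower in rods than in cones in every pool.

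Kcnq5 encodes a voltage-gated potassium channel subunit of the M-current type. Its levels varied widely between pools: melanocyte-like cells had 437 ± 529 CPM, with 1489, 109 and 383 CPM after saline and 160, 125 and 355 CPM after tropicamide. The order of the classes is therefore uncertain, and the value of 1489 CPM came from 7 cells of saline pool 1. Cluster B29, which has the T cell gene Ccl5 and the mast cell genes Mcpt4 and Cma1 among its leading genes, had 364 ± 254 CPM, and Schwann cell-like cells had 228 ± 167 CPM. The level was 40.2 ± 35.8 CPM in amacrine-like cells and 0.647 ± 0.266 CPM in rod-like cells. Cone bipolar-like cells (212) held 0 Kcnq5 UMIs, which allows a level of up to 2.53 CPM (3 UMIs over the class).

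**Figure D2:**
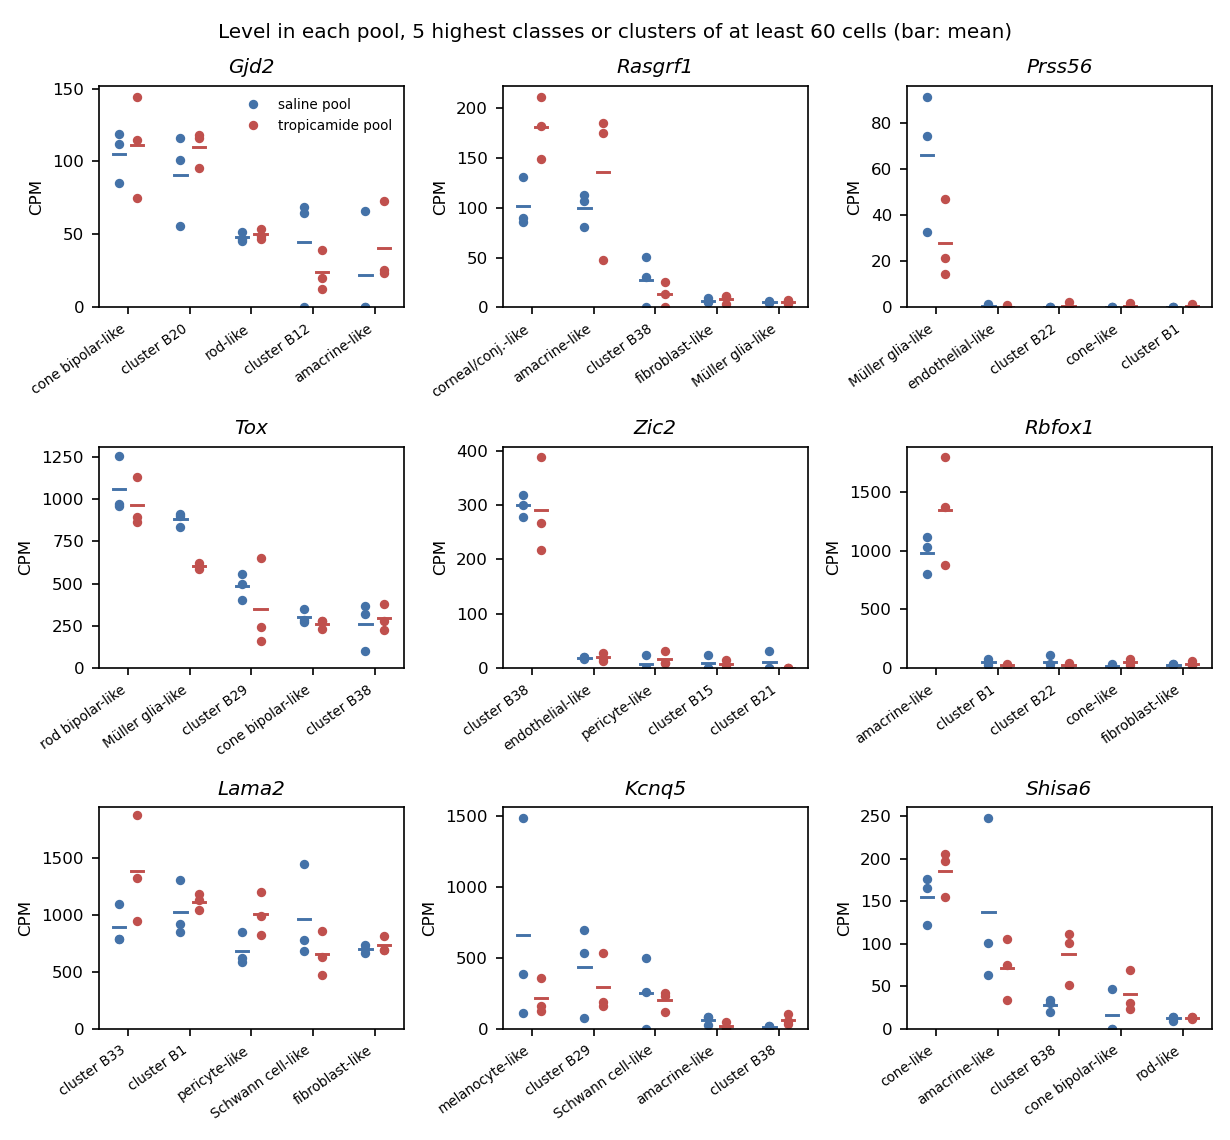
CPM of each member in each pool (points, saline in blue and tropicamide in red, bar at the mean of 3 pools) for its 5 highest classes or clusters of at least 60 cells. Points spread from 109 to 1489 CPM for Kcnq5 in melanocyte-like cells and lie from 587 to 911 CPM for Tox in Müller glia-like cells, where the colours do not overlap.

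Prss56 encodes a secreted serine protease that Müller glia make and that is known to affect the length of the eye. Müller glia-like cells held 89.0% of its UMIs, 154 in all, and reached 46.8 ± 30.4 CPM. Its pools did not overlap those of the next class in the order, endothelial-like cells, where 3 UMIs were found. Rod-like cells had 12 UMIs in 49328 cells, and retinal pigment epithelium-like cells had 0 in 1880 cells, which allows a level of up to 0.675 CPM (3 UMIs over the class). A UMI was seen in 10.8% of Müller glia-like cells and in 0.0243% of rod-like cells. The Müller glia-like pools ran from 14.5 to 91.3 CPM. Only 27 UMIs after tropicamide and 127 after saline lie behind these levels.

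Lama2 encodes the alpha chain of the laminin found in muscle and nerve basement membranes. It was present in all connective tissue and mural classes: cluster B33 had 1140 ± 416 CPM, cluster B1 (Igfbp5, Mgp, Serpine2) 1075 ± 171 CPM, pericyte-like cells 847 ± 233 CPM, Schwann cell-like cells 812 ± 339 CPM and fibroblast-like cells 719 ± 55.3 CPM. Each of these overlapped the next. Fibroblast-like cells held 58.0% of all Lama2 UMIs, and 88.3% of these cells had a Lama2 UMI, against 1.16% of rod-like cells (median depths 13860 and 2069 UMIs). Their clusters differed from each other, from 548 ± 59.9 CPM in B5 to 1180 ± 127 CPM in B2. Rod-like cells had 5.66 ± 2.59 CPM.

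Rasgrf1, a guanine nucleotide exchange factor for Ras and Rac that acts downstream of calcium, was highest in corneal or conjunctival epithelium-like cells (141 ± 49.99 CPM) and amacrine-like cells (118 ± 53.5 CPM). The epithelium-like pools measured 85.6, 89.8 and 131 CPM after saline and 182, 149 and 212 CPM after tropicamide. Fibroblast-like cells averaged 7.51 ± 3.28 CPM. Within them, 263 of the 273 Rasgrf1 UMIs came from cluster B19, at 77.7 ± 33.7 CPM, a cluster with the corneal stroma genes Kera and Angptl7 among its leading genes. Rod-like cells, with 0.514 ± 0.270 CPM, had 52 UMIs in all.

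Tox, an HMG-box nuclear protein known from T cell development, had its highest levels in 2 retinal classes. Rod bipolar-like cells had 1013 ± 149 CPM, with a UMI in 95.3% of cells, and Müller glia-like cells 743 ± 155 CPM, with a UMI in 58.4%. After thinning these shares were 55.7% and 40.8%, against 1.70% in rod-like cells and 0.316% in pigment epithelium-like cells. Cluster B29 followed at 417 ± 188 CPM, cone bipolar-like cells had 282 ± 37.7 CPM and amacrine-like cells 138 ± 61.1 CPM. The Müller glia-like class consisted of cluster B9 (374 cells, median 6610 UMIs per cell) and cluster B18 (189 cells, median 1021 UMIs). Tox was at 811 ± 129 CPM in B9, and B18 held 4 Tox UMIs. In rod-like cells (21.3 ± 4.45 CPM in all) Tox was uneven. Cluster A7 (1470 cells) had 158 ± 39.6 CPM and held 693 of the 2274 rod Tox UMIs, while the other rod clusters with at least 1000 cells lay between 8.2 and 20.3 CPM. In every pool A7 had at least 100.4 CPM, and none of those other clusters exceeded 32.7 CPM in any pool.

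Rbfox1, an RNA-binding protein that regulates splicing in neurons and muscle, was at 1170 ± 369 CPM in amacrine-like cells, from 803 to 1802 CPM over the pools. The next in order, cluster B1 at 37.6 ± 21.0 CPM, did not overlap them. Cluster A7 was again the highest rod cluster for this gene, at 79.9 ± 16.5 CPM, with pools from 62.2 to 95.7 CPM. Cluster A8 overlapped it, at 42.3 ± 27.0 CPM with pools from 0 to 82.9 CPM. The largest rod cluster A0 was the lowest of those with at least 1000 cells, at 14.0 ± 2.42 CPM. Gjd2 did not follow this pattern, with 37.9 ± 12.6 CPM in A7 and 55.7 ± 4.42 CPM in A0.

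Zic2, a zinc finger transcription factor of neural patterning, was concentrated in cluster B38, which was singled out after its values were seen. These 67 cells held 55.3% of all Zic2 UMIs, at 295 ± 57.2 CPM, and no pool overlapped those of another class. The genes leading this cluster were Crhbp, Apoe, Dapl1, Penk and Dkk3, and it was left unnamed because 2 marker lists scored alike. Tox (279 ± 105 CPM) and Shisa6 (57.9 ± 38.8 CPM) were also present in it. Endothelial-like cells had 19.1 ± 4.74 CPM of Zic2, and 160 of their 167 UMIs came from cluster B7, with Cldn5, Slco1a4 and Slc2a1 (genes of barrier endothelium) among its leading genes. Rod-like cells had 0.345 ± 0.222 CPM.

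**Figure D3:**
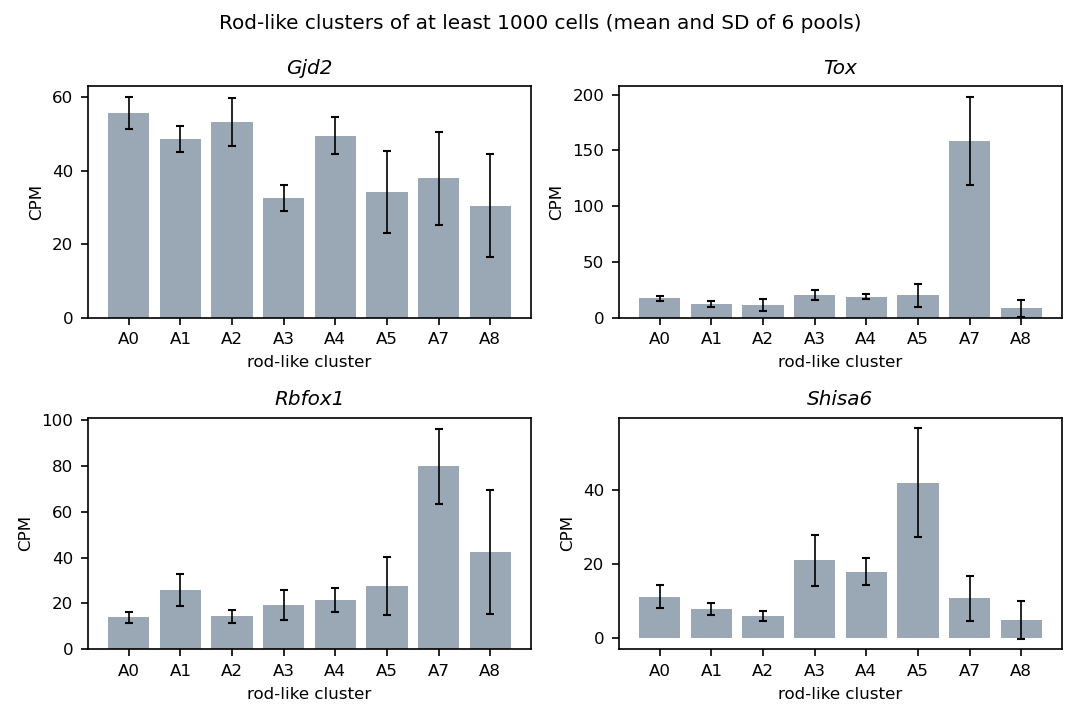
Mean CPM and SD over 6 pools of Gjd2, Tox, Rbfox1 and Shisa6 in the rod-like clusters of at least 1000 cells. Tox and Rbfox1 were highest in A7 (158 and 79.9 CPM), Shisa6 in A5 (42.1 CPM), and Gjd2 stayed between 30.5 and 55.7 CPM.

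Over the 12 named classes with at least 100 cells, the gene most like each member in its pattern (Pearson correlation of log2(mean CPM + 1), a description over classes that share libraries) was Apobec4 for Gjd2 (0.97), Gpr39 for Rasgrf1 (0.98), Slc13a5 for Prss56 (1.00), Kif5c for Tox (0.91), Notch4 for Zic2 (0.91), Fam174c for Rbfox1 (0.88), Nfatc4 for Lama2 (0.97), Vill for Kcnq5 (0.93) and Trpm2 for Shisa6 (0.96). Next came Dyrk1b and Galntl6 for Gjd2, Exph5 and Cldn3 for Rasgrf1, BC055402 and Rgs13 for Prss56, Ssbp3 and Lmtk3 for Tox, Klhl6 and Gpcpd1 for Zic2, Wdr74 and Fhit for Rbfox1, Prrx1 and Rarres2 for Lama2, Lst1 and Hpse for Kcnq5, and Apela and Actl6b for Shisa6. Amacrine-like cells and cluster B38 had under 100 cells and are not among the 12. The matches for Rbfox1 and Zic2 thus leave out the cells with most of each. They describe lower levels only, at most 33.0 CPM (cone-like) and 19.1 CPM (endothelial-like). The Lama2 match leaves out clusters B33 and B1, which had its highest levels. The Kcnq5 match leaves out cluster B29 and Schwann cell-like cells, and its highest class there is melanocyte-like, at 437 ± 529 CPM. The Prss56 match (0.995 with 3 decimals) rests on Müller glia-like cells, at 46.8 CPM against 0.396 CPM in endothelial-like cells, the next class. Among the members themselves Gjd2 and Shisa6 were most alike, at 0.76.

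The pools given tropicamide were compared with those given saline in 8 classes, in all cells together and in 8 smaller classes. Tox fell in Müller glia-like cells, by 0.56 on the log2 scale (SE 0.14, 95% interval -0.86 to -0.26, adjusted p = 0.0415, edgeR quasi-likelihood test with Benjamini-Hochberg adjustment). The tropicamide pools measured 587, 620 and 603 CPM and the saline pools 835, 900 and 911 CPM, a mean of 603 ± 16.8 against 882 ± 40.9 CPM (n = 3 each), and the groups did not overlap. It was the only call among 34 member and class pairs tested in the large classes. Among these, all cells together count as a class with 9 pairs. DESeq2 also called 1 (12 of its 34 pairs had no adjusted p, Prss56 in Müller glia-like cells among them). At an unadjusted p under 0.05 there were 9 pairs, 3 of them in all cells, which hold the same UMIs as the classes. Of all genes tested in Müller glia-like cells, 2.08% were called (0.867% lower), and in 18.4% the groups did not overlap. The number of genes called there, 144, was 15, 59 and 203 without saline pools 1, 2 and 3. Without tropicamide pools 1, 2 and 3 it was 118, 104 and 37. In the small classes 13 pairs were tested and 0 were called by edgeR or DESeq2, with 2 at an unadjusted p under 0.05. The share of all genes at an unadjusted p under 0.05 is not given here, so neither count is read as an excess. In the other classes the share of all genes called was 10.4% in rod-like, 0.0265% in cone-like, 0.0557% in cluster B4, 0.0115% in cluster B1, 0% in fibroblast-like and endothelial-like, 0% in rod bipolar-like and smooth muscle-like cells and cluster B22, 0.0901% in cluster B20, 0.0243% in cone bipolar-like, 0.822% in epithelium-like and 0.00501% in all cells.

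The call for Tox rests on all 6 pools: leaving out any 1 of them ended it, at adjusted p from 0.0577 to 0.138, with the fold between -0.60 and -0.53. Müller glia-like cells also differed in depth and makeup between the groups. Their median UMIs per cell were 1545, 1956 and 1196.5 after tropicamide and 3299, 7417 and 4777 after saline. Cluster B18, nearly without Tox, made up 45.8%, 45.5% and 50% of the class after tropicamide and 20%, 26.9% and 25.2% after saline. In cluster B9 alone the tropicamide pools had 666, 705 and 724 CPM and the saline pools 866, 934 and 969 CPM. These do not overlap. The share of all genes without overlap in B9 alone is not given here (18.4% in the whole class), so nothing is read from it. The fitted change in B9 was -0.44 with adjusted p = 0.193 (edgeR). With cells of at least 2000 UMIs only, the change was -0.42 with adjusted p = 0.280. Rod markers (10 genes) summed to 3893 to 7165 CPM in Müller glia-like cells after tropicamide and 2286 to 3100 CPM after saline, and their part in the result was not tested. Endothelial markers (10 genes) summed to 2183 to 2596 and 2738 to 3162 CPM, and the 12 Müller glia markers to 23641 to 25380 and 25048 to 25963 CPM, with none of the 12 at 0. The change of Tox in Müller glia-like cells was not shown to differ from that in rod-like cells (difference -0.28, SE 0.18, adjusted p = 0.519, edgeR). In rod bipolar-like cells, the class with most Tox, the change was -0.16 (95% interval -0.49 to 0.17). In rod-like cells it was -0.26 (adjusted p = 0.313), and without tropicamide pool 2 it was -0.53 with adjusted p = 0.0378.

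**Figure D4:**
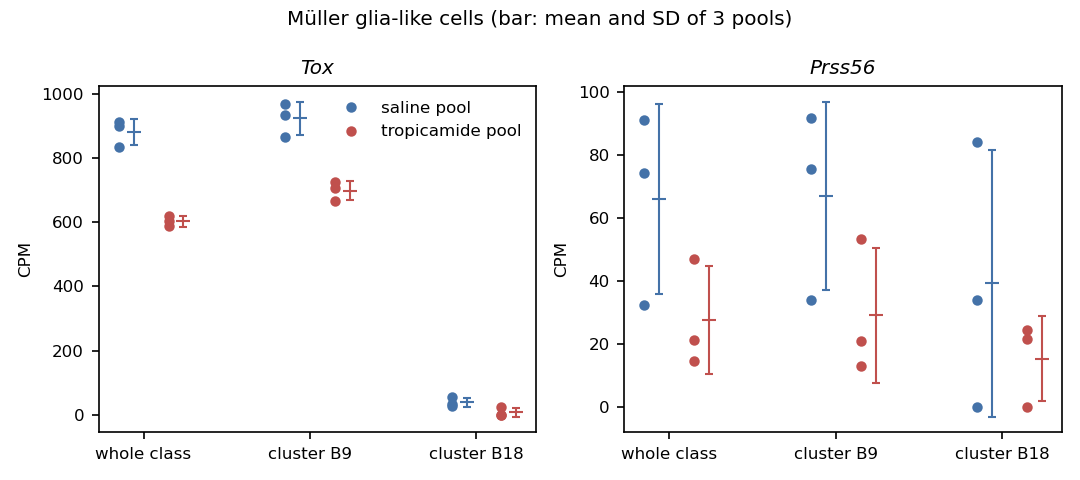
Tox and Prss56 in each pool (points, with mean and SD of 3 pools) in the whole Müller glia-like class and in its clusters B9 and B18. For Tox, tropicamide pools lie at 587 to 620 CPM and saline pools at 835 to 911 CPM in the whole class, and both groups are near 0 in B18.

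Prss56 in Müller glia-like cells had 21.4, 47.0 and 14.5 CPM after tropicamide and 74.2, 32.6 and 91.3 CPM after saline. The means were 27.7 ± 17.1 and 66.0 ± 30.2 CPM, the groups overlapped, and the change of -1.26 (SE 0.39) did not pass (adjusted p = 0.109, edgeR). Without tropicamide pool 2 the adjusted p was 0.0434 and without saline pool 2 it was 0.0392, and with no low-count filter it was 0.00882. In all cells together Prss56 was at 0.360 ± 0.143 against 1.51 ± 0.926 CPM (adjusted p = 0.282) and Tox at 35.02 ± 5.69 against 51.0 ± 7.07 CPM (-0.51, adjusted p = 0.282). In such sums fewer cells of a type and less RNA per cell cannot be told apart: Müller glia-like cells numbered 72, 77 and 94 after tropicamide and 150, 67 and 103 after saline.

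Lama2 values were higher after tropicamide in several classes without passing. In cluster B4 (Ptn, Schip1, Edn3) the tropicamide pools had 710, 696 and 806 CPM and the saline pools 582, 489 and 545 CPM (0.41, adjusted p = 0.457). The groups did not overlap there, as for 12.7% of all genes tested in that cluster. In smooth muscle-like cells Lama2 had 633 ± 103 against 387 ± 90.7 CPM (0.63, adjusted p = 0.999), and the groups did not overlap, as for 12.0% of all genes. Fibroblast markers (10 genes) summed there to 3288 to 4364 CPM after tropicamide and 1114 to 3875 CPM after saline, and their part was not tested. In rod-like cells the level was 7.11 ± 2.69 against 4.22 ± 1.81 CPM (0.74, adjusted p = 0.142). Without tropicamide pool 3 the adjusted p there was 0.0458, without saline pool 3 it was 0.0223, and with no low-count filter it was 0.0194. Fibroblast markers summed in rod-like cells to 354 to 484 CPM after tropicamide and 174 to 336 CPM after saline, and their part was not tested. In fibroblast-like cells, the main source of Lama2, the fitted change was -0.0027 (95% interval -0.21 to 0.20). The fit scales the pools by TMM and the printed CPM are not scaled so, at 735 ± 74.6 after tropicamide and 702 ± 36.3 after saline, and no direction is read from either.

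Gjd2 in rod-like cells changed by 0.08 (95% interval -0.06 to 0.23, adjusted p = 0.463), with 47.1, 53.9 and 49.2 CPM after tropicamide and 45.3, 47.0 and 51.4 CPM after saline. This is the narrowest interval of any member, and in cone bipolar-like cells it ran from -0.53 to 0.75. Shisa6 in cone-like cells changed by 0.20 (95% interval -0.16 to 0.56). Rasgrf1 in corneal or conjunctival epithelium-like cells was higher in each tropicamide pool than in any saline pool (0.64, SE 0.25, adjusted p = 0.449), and the groups did not overlap for 19.1% of all genes tested there. Markers of that epithelium (8 genes) summed to 50069 to 59051 CPM after tropicamide and 38159 to 43883 CPM after saline, and their part was not tested. Rbfox1 in cone-like cells had 51.1 ± 27.6 against 14.98 ± 14.9 CPM (1.47, adjusted p = 0.542) and in cluster B1 24.9 ± 10.7 against 50.3 ± 22.6 CPM (-0.95, adjusted p = 0.482), with overlapping groups in both. With no low-count filter the adjusted p in cluster B1 was 0.029. Zic2 in endothelial-like cells changed by -0.05 (95% interval -0.73 to 0.64). Zic2 in cluster B38, Rbfox1 in amacrine-like cells and Kcnq5 in melanocyte-like cells were not tested, because a pool held fewer than 10 cells of the class. All adjusted p values in this paragraph are from edgeR.

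**Figure D5:**
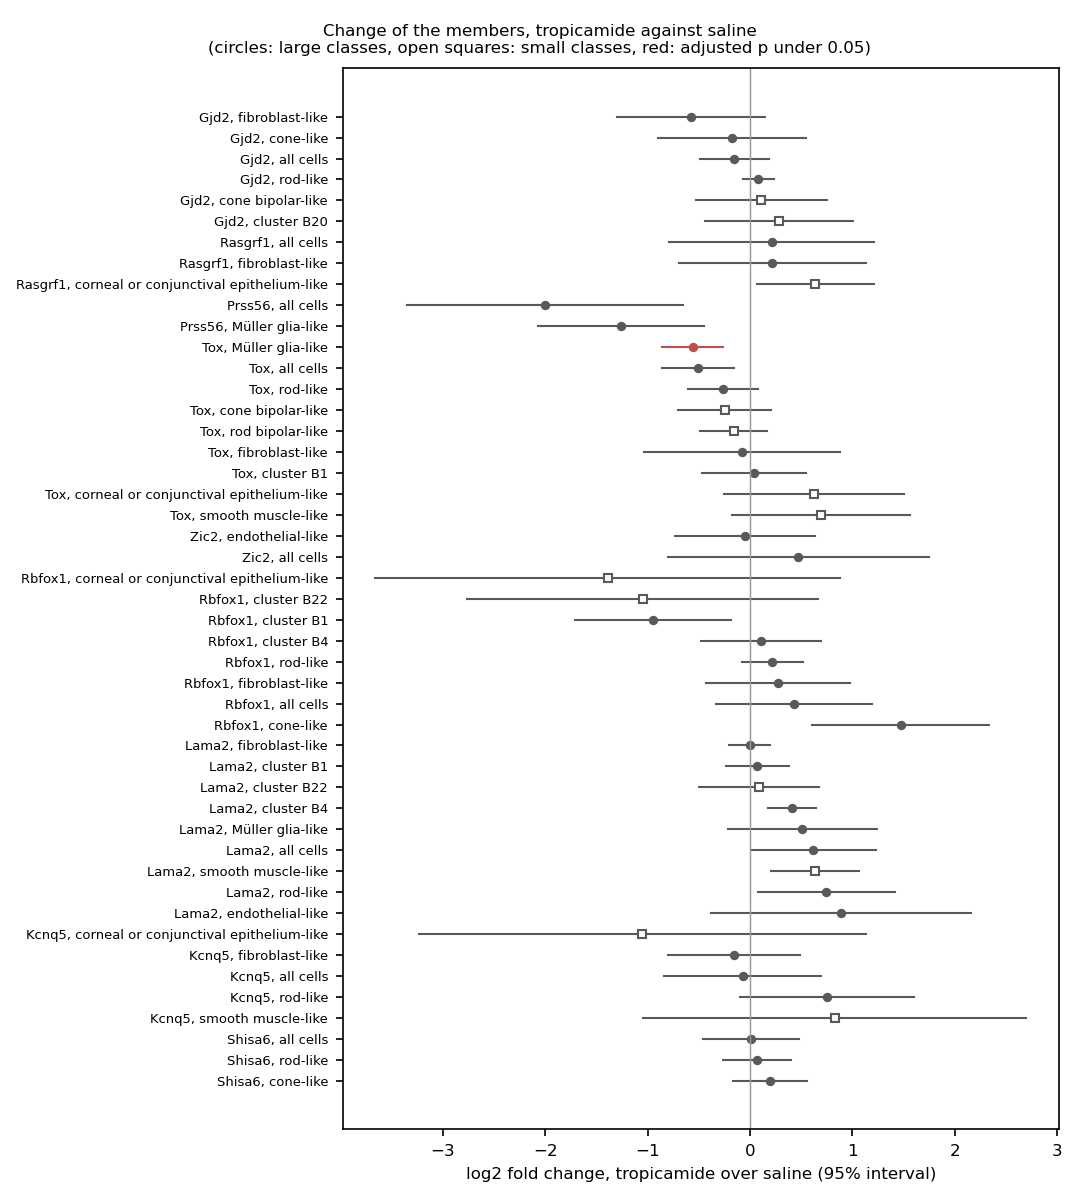
Log2 fold change (tropicamide over saline) with its 95% interval for the 47 member and class pairs tested, with filled circles for large and open squares for small classes. All cells together count as a large class. The red point, Tox in Müller glia-like cells at -0.56, is the only pair with an adjusted p under 0.05.

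Other genes linked to refractive error were read in the same fits. Of 37 further common variant genes, 36 were in the matrices and 28 were tested in rod-like cells, of which 3 were called higher and 2 lower, with a median change of 0.0081 against -0.0042 over all genes there (5.52% called higher, 4.87% lower). Rgr, a retinal pigment epithelium opsin, rose by 2.23 (22.2 ± 9.91 against 4.88 ± 2.31 CPM, adjusted p = 0.00394). Rdh5, a retinol dehydrogenase of that epithelium, rose by 0.75 and the Wnt inhibitor Sfrp1 by 1.397. Pccb, a mitochondrial carboxylase subunit, fell by 0.36, and Gnb3, the G protein beta subunit of cones and ON bipolar cells, fell by 0.26. Of 27 genes of inherited high myopia, 24 were tested in rod-like cells, with 4 called higher and 0 lower and a median of 0.19. These were Fbn1 (fibrillin, 1.20), Arr3 (cone arrestin, 0.51), P4ha2 (a collagen prolyl hydroxylase, 1.07) and Col11a1 (1.89). Most of them are known from other cell types than rods. Markers of 3 other cell types were also higher in the rod-like cells of every tropicamide pool than of any saline pool. The remaining marker lists in rod-like cells are not given here. Nor is the share of all genes whose groups did not overlap there, so the 3 are not read as an excess. The retinal pigment epithelium list (10 genes, Rgr and Rdh5 among them) summed to 384 to 590 against 285 to 310 CPM, the fibroblast list as given above, and the Müller glia list (12 genes) to 160 to 206 against 87.6 to 135 CPM. None of these lists had a marker at 0, and their part in the calls was not tested. In the other classes 0 genes of both lists were called. The rod calls depend on single pools: of all genes, 1688 were called with 6 pools. The count was 791, 370 and 1123 without tropicamide pools 1, 2 and 3. Without saline pools 1 and 2 it was 760 and 750, and without saline pool 3 it rose to 2311. Without tropicamide pool 2, 1 common variant gene was called higher and 0 lower, and 1 gene of inherited high myopia higher. Without saline pool 3, 2 common variant genes were called higher and 2 lower, and 7 genes of inherited high myopia higher. Rgr passed in each refit with a pool left out, and each of the other 8 genes named here missed the threshold in at least 1 of them.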

How the data were processed

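The deposited values are raw UMI counts per gene and cell barcode. Per the file headers the authors used Cell Ranger 8.0.1, and the submitters' processing notes name STAR and GRCm39. Annotation release, intron counting and cell calling: not given in the sources used here. An extraction text about bone in the labels was set aside. The labels name no batches.

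Barcodes under 500 UMIs or 300 genes, or above 20% mitochondrial UMIs, were removed (416). Doublets were scored against simulated ones, and 0.8% per 1000 barcodes, 5960 in all, were removed. Clustering used Leiden at resolution 1, in 2 rounds. Clusters were named from 29 marker lists at a score of at least 0.75 and 0.5 above the next list, limits set after the clusters were seen. At least 3 markers of the list had to be detected. A cluster also stayed unnamed where another list held at least 2 of its leading genes and more of them than the best list. Free RNA was not removed.

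Sums of counts per pool and class were tested, so the replicate is a pool of 4 eyes. The p-values set the difference between groups against the spread between pools. Classes whose smallest pool had at least 30 cells, and small classes with 10 to 29, were tested with edgeR 4.0.16 in R 4.3.3 (quasi-likelihood, TMM, filterByExpr, adjusted p under 0.05 over all genes of the class), with DESeq2 1.42.0 as an alternative. Shares of cells carry counting error only. The method was tested on simulated data. The members, lists and tests were chosen with earlier results of these data known. All 9 members were described; genes of the other lists were named where they passed, at most 6 per class, and the 3 most alike genes by the correlation given, among genes of at least 10 CPM. Python 3.11.15, numpy 2.4.6, igraph 0.11.9 and leidenalg 0.10.2 were used.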

Additional observations from a re-analysis of the deposited data

How the results depend on the processing

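The number of member and class pairs called in the large classes (all cells together included), 1 as reported, was 1 with DESeq2 size factors, with the DESeq2 test and with the replicate block. It was 5 of 76 pairs with no low-count filter, and 0 with the stricter cell filter, with no doublet removal, with cells of at least 2000 UMIs only and with only the cluster of highest median UMI. Leaving out 1 pool gave 0 to 2. In the small classes it was 3 of 54 pairs with no low-count filter and 0 otherwise. For Tox in Müller glia-like cells the change ran from -0.60 to -0.42 over all 14 alternatives, with adjusted p from 0.00569 (replicate block) to 0.280 (cells of at least 2000 UMIs); it was 0.119 with the stricter cell filter and 0.0508 with no doublet removal. With no low-count filter, Prss56 there (adjusted p = 0.00882), Lama2 in rod-like cells (0.0194) and in endothelial-like cells (0.00254) and Rbfox1 in cluster B1 (0.029) also passed. The 3 in small classes were Kcnq5 in cluster B22, Rbfox1 in epithelium-like cells and Rbfox1 in smooth muscle-like cells. Calls over all genes also rose without this filter, from 0 to 157 of 20722 in endothelial-like cells and from 1 to 128 of 21262 in cluster B1. They rose from 0 to 93 of 18126 in cluster B22, from 0 to 30 of 19313 in smooth muscle-like cells and from 1688 to 2254 of 26076 in rod-like cells. Of all genes, the 144 calls in Müller glia-like cells were 279 with no low-count filter, 268 with the replicate block, 62 with the stricter cell filter, 67 with no doublet removal, 41 with cells of at least 2000 UMIs and 42 in the deepest cluster. The 1688 in rod-like cells were 476 in the deepest cluster. The 67 in epithelium-like cells were 505 with no low-count filter, 159 with the replicate block, 150 with the DESeq2 test and 4 to 165 with 1 pool left out. Same-numbered pools correlated between -0.493 and 0.0691 in the classes checked, while tropicamide pool 3 and saline pool 2 reached 0.481 in all cells. With 3 pools per group such correlations cannot show whether pools were paired. The labels name no batches, so the block has no stated basis in the design.

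Of 317 refits of 23 member and class pairs followed through the alternatives, 284 kept direction and side of the threshold, 3 had no adjusted p from DESeq2, 10 lost a call, 8 gained one and 12 changed sign. Outside the leave-one-out refits these were Lama2 in fibroblast-like cells (0.0085 with no low-count filter) and Zic2 in endothelial-like cells (0.13 with the replicate block, 0.024 with no doublet removal). With 1 pool left out, Gjd2 in cone bipolar-like cells ran from -0.14 to 0.33, Lama2 in cluster B1 from -0.056 to 0.27, Lama2 in fibroblast-like cells from -0.059 to 0.041, Shisa6 in rod-like cells from -0.11 to 0.18 and Zic2 in endothelial-like cells from -0.29 to 0.23. The difference of the Tox change from that in rods ran from -0.35 to -0.09. The levels in the leading classes moved by less than 1 SD with the stricter cell filter and with no doublet removal. Even so, Kcnq5 in melanocyte-like cells went to 274 CPM with the stricter filter. Numbered clusters of under 100 cells were left out of this check. Zic2 was therefore followed in endothelial-like cells and Lama2 in cluster B1, and their levels in clusters B38 and B33 were not followed. The 8 values that moved were shares of cells with a UMI, all lower after thinning to 1000 UMIs. Not run, for want of cells or clusters: only the deepest cluster for endothelial-like and smooth muscle-like cells, and cells of at least 2000 UMIs for cluster B21. Depth limits the genes with few UMIs, Prss56 most.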

Other observations

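Several members had a higher mean in some clusters of a class than in the whole class. Fibroblast-like clusters B6 and B19 had 74.3 ± 32.2 and 67.9 ± 41.1 CPM of Rbfox1 (SD, n = 6 pools), where the whole class had 33.0 ± 14.0 CPM. The pools ran from 34.5 to 113.5 CPM in B6 and from 0 to 100.1 CPM in B19. Smooth muscle-like cluster B30 (101 cells) had 119 ± 57.7 CPM of Tox, with pools from 46.1 to 220.4 CPM. Its Kcnq5 was at 72.5 ± 71.5 CPM, with pools from 0 to 165.8 CPM. Cluster B38 also held 19.9 ± 19.5 CPM of Rasgrf1 (27 UMIs, pools from 0 to 50.1 CPM) and 38.3 ± 37.5 CPM of Kcnq5 (pools from 0 to 105.3 CPM). These clusters were picked after their values were seen.

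The rod-like cells after tropicamide were spread differently over their clusters. Cluster A4 made up 9.93%, 8.50% and 9.20% of rod-like cells after tropicamide and 19.4%, 22.5% and 14.1% after saline. Cluster A2 made up 23.45%, 26.98% and 21.8% against 8.85%, 10.18% and 18.4%, and cluster A8 4.74%, 4.85% and 3.21% against 0.818%, 0.848% and 0.868%. In the other rod clusters the groups overlapped. Among them was cluster A7, with most Tox per cell among the large rod clusters, at 1.75%, 3.48% and 2.41% against 3.00%, 3.05% and 3.99%. These shares were not tested.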
